A study of Mus musculus with 13 samples.

Results

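The hearts described here met a raised pressure load without any drug. In 3 Veh-TAC mice the aorta had been narrowed by transverse aortic constriction (TAC), and in 3 Veh-Sham mice surgery was done without it. Both groups were male C57BL/6 mice, 8 to 10 weeks old, that received water as vehicle by oral gavage each day, and the hearts were taken 1 week after surgery. They are 6 of the 13 hearts of the study and were chosen by the group in their labels. The other hearts, 4 TUDCA-TAC and 3 TUDCA-Sham, came from mice given the bile acid TUDCA. They enter here through the joint normalization of the 13 arrays and the choice of genes and probes. They also enter through the shared estimate of spread and the difference of responses given last. Total RNA of each heart was read on an Illumina mouse ref-8 bead array, which measures each transcript by the brightness of a probe. One time point, 1 sex and 3 hearts a group bound the model, and RNA of a heart mixes all of its cell types, so that fewer cells of a type and less RNA per cell cannot be told apart. Nothing in the labels says more than that the hearts are separate samples, and the p-values measure the spread between them.

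When the left ventricle pumps against a narrowed aorta, wall stress rises and the muscle cells enlarge. Hypertrophied ventricle is known for returning to part of its fetal programme, with natriuretic peptides, skeletal actin and the slow myosin heavy chain, and for burning less fat. Fibroblasts meanwhile divide and lay down collagen and elastic fibres, and macrophages gather. The comparison of Veh-TAC with Veh-Sham hearts asks how far each of these programmes had moved in the transcripts after 1 week.

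A total of 8336 genes could be compared, each through its brightest probe with a symbol, and 2085 of them were called, at a Benjamini-Hochberg adjusted p under 0.05 in limma. That is 25% of the genes tested, with 1046 (12.5%) higher and 1039 (12.5%) lower in Veh-TAC hearts. Counts of the gene lists given below are to be read beside these shares, and a count near them is no result about a list. The rises were the larger ones. Among called genes 338 rose and 147 fell by more than 2-fold, and 57 rose and 7 fell by more than 4-fold. These sizes depended on the background correction. Without it, 124 called genes rose and 39 fell by more than 2-fold, and 18 rose and 2 fell by more than 4-fold. All 184 called genes named here had a smaller fold without the correction, by 1.32 times in the median and 3.56 times at most (Tnc). It moved by more than 1.5 times in 62 of them, and in each of these the lower group had a mean log2 signal under 9, as in 102 of the 184. A fold printed for such a dim gene, bounds included, therefore belongs to this correction, while the direction was the same without it. The median log2 fold change was 0.77 over the called rises, −0.62 over the called falls and −0.03 over all genes tested. At the threshold that the article states for its own gene list (over 1.5-fold with an unadjusted p under 0.05) 1496 genes passed, or 17.9%, of which 839 were higher and 657 lower. Without background correction 657 genes passed it in all, and 655 did on the normalized values that the authors deposited. The balance of directions depended on the scaling of the arrays. Quantile normalization, used throughout, put 50.2% of the called genes on the higher side. Scaling each array by its median called 1356 higher and 357 lower, with 79.2% on the higher side, and moved the median of all genes to 0.12. A fall of modest size is therefore a fall relative to the other transcripts of the same heart.

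The hearts within a group were close to each other. The median SD of a gene was 0.17 log2 units in Veh-TAC hearts and 0.16 in Veh-Sham hearts. Against the mean of the Veh-Sham hearts, 279 genes were more than 2-fold higher and 102 lower in heart T3, 486 and 281 in heart T8, and 389 and 241 in heart T9. A Veh-Sham heart set against the other two of its group gave 14 and 28 such genes for S3, 28 and 70 for S4, and 31 and 22 for S6. Heart T3 stood nearest to the Veh-Sham hearts and T8 farthest. In 3589 genes (43.1%) the groups did not overlap, and 18 called genes did overlap. Veh-TAC arrays detected 12430 to 12744 probes and Veh-Sham arrays 11836 to 12174, and raw intensities spread wider under load, with a 90th over a 25th percentile of 8.22 to 8.52 in Veh-TAC arrays and 6.49 to 7.31 in Veh-Sham arrays. The part of this difference in the results was tested only by adding the ratio to the fit, an alternative chosen after seeing the data, which called 2382 genes. Leaving out T8 reduced the calls to 1207 (645 higher, 562 lower), and leaving out T9 reduced the falls to 661. Where a group of genes leans on a heart in this way, its counts without that heart stand beside it.

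**Figure D1:**
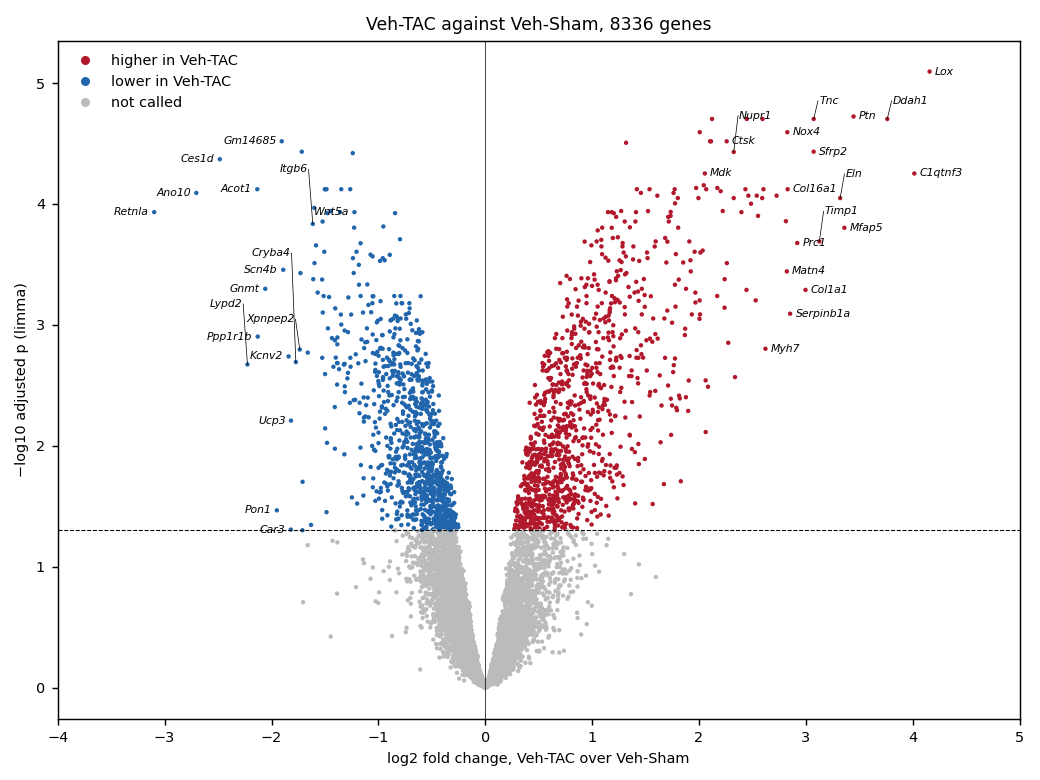
Each point is 1 of the 8336 genes, placed by its log2 fold change in Veh-TAC against Veh-Sham hearts (x axis) and by the −log10 of its adjusted p (y axis). The 1046 called rises extend farther from 0 than the 1039 called falls, with Lox at 4.16 and Retnla at −3.10 as the outermost.

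Genes of collagen and elastic fibres made up much of the 15 largest rises. Lox encodes lysyl oxidase, which crosslinks collagen and elastin. Its log2 signal was 12.18, 12.70 and 12.32 in Veh-TAC hearts T3, T8 and T9, against 8.43, 8.29 and 8.02 in Veh-Sham hearts S3, S4 and S6. It rose 17.8-fold (9.88-fold without background correction, log2 fold change 4.16, SE 0.25, adjusted p = 8.0e-06), and the lowest Veh-TAC heart stood far above the highest Veh-Sham heart. C1qtnf3, a secreted protein of the C1q and TNF family, had 10.54, 10.48 and 10.49 in Veh-TAC hearts and 6.50, 6.33 and 6.65 in Veh-Sham hearts, and rose 16.2-fold (adjusted p = 5.6e-05), or 4.84-fold without background correction. Ddah1 breaks down an inhibitor of nitric oxide synthase. It had 11.39, 11.88 and 11.43 in Veh-TAC hearts against 7.85, 7.53 and 8.04 in Veh-Sham hearts, a rise of 13.6-fold (6.68-fold without the correction). Ptn, the heparin-binding growth factor pleiotrophin, rose 10.9-fold (6.08-fold without it), and Mfap5 and Eln, both of elastic fibres, rose 10.3-fold and 9.99-fold. The remaining genes among the 15 largest rises without overlap that had a value in every heart above the detection limit were Timp1 (8.72-fold), Sfrp2 (8.41-fold), Col1a1 (7.98-fold), Prc1 (7.56-fold), Serpinb1a (7.22-fold), Col16a1 (7.10-fold) and Nox4 (7.09-fold). Tnc, tenascin-C, belongs with them but was not detected in any Veh-Sham heart. Its log2 signal was 8.87, 8.66 and 9.09 in Veh-TAC hearts and 5.82, 5.68 and 5.90 in Veh-Sham hearts, so that it was at least 6.66-fold higher after background correction (adjusted p = 2.0e-05), and 2.36-fold higher without the correction. Such bounds set the mean of the brighter group against the lowest signal that counts as detected. Matn4, a matrix adaptor, was called higher (adjusted p = 0.00036) with means of 8.79 in Veh-TAC hearts and 5.97 in Veh-Sham hearts, but was detected in 1 of 3 Veh-Sham hearts, so that its fold is not well measured (7.07, or 2.26 without background correction).

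The largest falls were fewer and of other kinds. Retnla, a secreted product of alternatively activated macrophages and fat, had a log2 signal of 6.61, 6.06 and 6.00 in Veh-TAC hearts and 9.21, 9.77 and 8.98 in Veh-Sham hearts. It fell to 6.61 or less in each Veh-TAC heart, 8.56-fold lower than in Veh-Sham hearts (log2 fold change −3.10, SE 0.34, adjusted p = 0.00012), and 2.70-fold lower without background correction. Ano10, a protein of the anoctamin family, had 8.94, 8.25 and 8.27 in Veh-TAC hearts against 11.16, 11.22 and 11.19 in Veh-Sham hearts, 6.51-fold lower (4.12-fold without the correction). Ces1d, a carboxylesterase that hydrolyses triglyceride, had 12.53, 11.72 and 11.44 in Veh-TAC hearts against 14.31, 14.36 and 14.47 in Veh-Sham hearts, 5.59-fold lower. The values of each gene did not overlap between the groups. Acot1, a cytosolic thioesterase of acyl-CoA, was 4.39-fold lower, Ppp1r1b, an inhibitor of protein phosphatase, 4.37-fold, and Gnmt, which methylates glycine, 4.16-fold (1.73-fold without the correction). Scn4b, a beta subunit of the sodium channel, had 8.59, 7.76 and 7.65 in Veh-TAC hearts against 9.85, 9.92 and 9.90 in Veh-Sham hearts, 3.71-fold lower. In Ces1d, Ppp1r1b and Scn4b heart T3 lay between T8 and T9 on one side and the Veh-Sham hearts on the other. Lypd2 fell, but was detected in 1 of 3 Veh-TAC hearts, so that its fold is not well measured (4.68, or 1.80 without the correction), and Gm14685 (3.74-fold), Ucp3 (3.52-fold) and Xpnpep2 (3.33-fold) were each detected in 2 of 3. Cryba4, a crystallin, was 3.42-fold lower. Pon1, paraoxonase, was detected in no Veh-TAC heart and was at least 2.98-fold lower (adjusted p = 0.034, with means of 5.62 in Veh-TAC and 7.57 in Veh-Sham hearts). Its call held in 1 of the 6 fits that left out a heart and was lost without background correction.

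**Figure D2:**
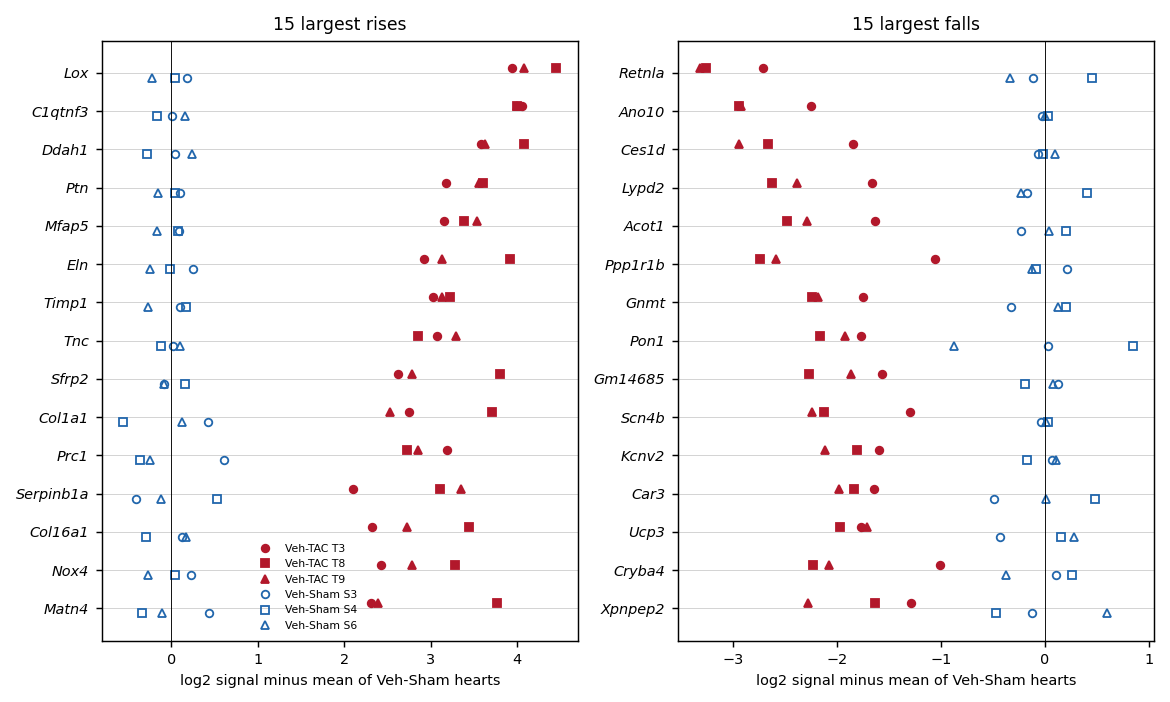
Log2 signal minus the mean of the Veh-Sham hearts (x axis) for the 15 largest rises (left) and the 15 largest falls (right) without overlap, 1 row a gene, with filled points for Veh-TAC hearts T3, T8 and T9 and open points for Veh-Sham hearts S3, S4 and S6. Groups lie apart in every row, Lox having the largest rise (4.16) and Retnla the largest fall (−3.10).

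The stress programme of the ventricle rose as a group. Of 17 measured fetal and stress markers, 10 rose and 1 fell, with a median log2 fold change of 1.34 against −0.03 over all genes, and 9 rose when any 1 of the 6 hearts was left out. Myh7, the slow myosin heavy chain of the fetal mouse ventricle, had a log2 signal of 7.87, 9.44 and 9.28 in Veh-TAC hearts and 6.42, 6.08 and 6.23 in Veh-Sham hearts, and was detected in 2 of the 3 Veh-Sham hearts. It rose 6.15-fold (SE 0.45 on the log2 scale, adjusted p = 0.0016), or 2.23-fold without background correction, with T3 lowest among the Veh-TAC hearts and still above every Veh-Sham heart. Some of the best known markers left the range of the scanner. Within 10% of the highest intensity an array is saturated, and a fold read there is a lower bound. Acta1, skeletal actin, was saturated in 3 of 3 Veh-TAC hearts and in no Veh-Sham heart. Its signal was 16.08, 16.04 and 16.02 in Veh-TAC hearts against 14.47, 14.25 and 13.96 in Veh-Sham hearts, at least 3.53-fold higher (adjusted p = 0.0041). Nppb, the precursor of B-type natriuretic peptide, was likewise saturated in the Veh-TAC hearts only, with 15.93, 16.09 and 16.02 against 15.06, 15.02 and 14.82 in Veh-Sham hearts, at least 2.07-fold higher (adjusted p = 0.038). The groups stood apart, but the call of Nppb was lost when any 1 heart was left out, and with arrays scaled by their median, while its log2 fold change stayed between 0.97 and 1.10 without any 1 heart. Nppa, the precursor of the atrial peptide, was saturated in all 6 hearts (16.07, 16.07 and 16.09 in Veh-TAC hearts, 16.08, 16.07 and 16.09 in Veh-Sham hearts), and these arrays give no fold for it. Clu, the secreted chaperone clusterin, was at least 2.53-fold higher and also saturated in every Veh-TAC heart. Fhl1, a LIM protein of the stretch response, rose 2.67-fold with 14.28, 14.60 and 14.71 in Veh-TAC hearts and 13.11, 13.08 and 13.13 in Veh-Sham hearts. Uchl1, a ubiquitin hydrolase known from neurons, rose 5.26-fold with 8.73, 9.73 and 9.89 in Veh-TAC hearts and 7.46, 7.06 and 6.64 in Veh-Sham hearts. Myl7, the regulatory light chain of atrial myosin, was the member that fell, 1.89-fold lower.

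The promoters of Acta1 and Nppb are shown because both genes reached the ceiling of the scanner under load, and because the MCAT element and the CArG box are known from promoters of muscle genes. The RefSeq sequences of build GRCm38.p6 run from 250 bases before to 50 bases after the start of the gene, on its own strand, chr8:123894726-123895025 (minus strand) for Acta1 and chr4:147985650-147985949 (plus strand) for Nppb. Capitals mark the CArG box (Acta1 only, named without letters because it is degenerate), the MCAT element CATTCC, read as GGAATG in Nppb where it lies on the other strand, and the letters TATAAA of the TATA box.
Acta1: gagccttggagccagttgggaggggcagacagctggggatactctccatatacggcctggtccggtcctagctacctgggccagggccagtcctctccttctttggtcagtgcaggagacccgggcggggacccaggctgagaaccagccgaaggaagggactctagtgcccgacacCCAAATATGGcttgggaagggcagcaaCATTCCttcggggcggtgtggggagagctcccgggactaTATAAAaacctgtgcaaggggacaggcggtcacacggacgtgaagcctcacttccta
Nppb: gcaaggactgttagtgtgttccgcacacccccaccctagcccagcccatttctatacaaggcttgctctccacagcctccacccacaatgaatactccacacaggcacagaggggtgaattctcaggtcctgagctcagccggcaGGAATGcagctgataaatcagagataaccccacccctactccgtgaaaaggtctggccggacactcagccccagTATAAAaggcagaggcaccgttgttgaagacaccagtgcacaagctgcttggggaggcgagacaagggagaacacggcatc
Both strands were searched, and the marked matches do not overlap one another. The MCAT letters began at −46 in Acta1 and at −105 in Nppb. The RefSeq table gave a promoter for 6788 of the 8336 genes tested. In them, MCAT letters stood in 13.6% of the promoters of called rises, in 13.7% of those of called falls and in 12.1% of all tested, a CArG box in 1.70%, 0.701% and 1.47%, and TATAAA in 9.95%, 7.59% and 7.66%. A match is a run of letters and was not tested for a role.

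Of 17 sarcomere proteins 2 rose (1 without T8, S3 or S6) and 1 fell (2 without T3). Des, the intermediate filament desmin, rose 2.18-fold, with 14.74, 15.44 and 15.32 in Veh-TAC hearts against 14.05, 13.94 and 14.14 in Veh-Sham hearts. Tnni3, cardiac troponin I, was 1.53-fold lower, with 13.15, 12.97 and 13.06 in Veh-TAC hearts and 13.57, 13.78 and 13.66 in Veh-Sham hearts. Actc1, Myl2 and Atp2a2 were saturated in all 6 hearts on their brightest probes, which give no direction. A second, dimmer probe of Actc1 had a log2 fold change of 0.09 (adjusted p = 0.67). Z-disc and costamere proteins, which anchor the sarcomere and sense stretch, gave 9 rises and no fall among 21 measured (8 or 9 rises without any 1 heart, median 0.19). Csrp2, a LIM protein first known from smooth muscle, rose 3.33-fold with 13.57, 13.90 and 14.12 in Veh-TAC hearts and 11.93 to 12.44 in the 3 Veh-Sham hearts. Synpo2l rose 3.06-fold, Pdlim7 2.61-fold, Pdlim5 2.09-fold and Pdlim3 1.67-fold, which are partners of actinin and actin at the Z-disc.

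Where a protein has an adult and another form, the other form more often had the higher fold change. Of 32 pairs in the list 22 had both members measured, and in 17 of them the log2 fold change of the other form was the more positive. The adult forms Actc1, Myl2, Atp2a2 and Fabp3 were saturated, and the order within their pairs is limited by the ceiling of the scanner. The adult form fell in 5 pairs and rose in 1, while the other form rose in 8 and fell in 2. Myh6, the fast adult myosin, had 15.27, 15.71 and 15.60 in Veh-TAC hearts and 15.97, 15.64 and 16.02 in Veh-Sham hearts, of which 2 were saturated. Its log2 fold change of −0.35 did not pass the test (adjusted p = 0.16) and is limited by the ceiling. A second, dimmer probe of Myh6 had −0.94 (adjusted p = 0.21), beside 2.62 for Myh7. Slc2a4, the insulin-responsive glucose transporter, was 2.04-fold lower, and Slc2a1, the transporter of most cells, had a log2 fold change of 0.05 (adjusted p = 0.84). Pfkm, muscle phosphofructokinase, had −0.44 on its brightest probe (adjusted p = 0.063) and was called in 12 of 27 alternatives, while 2 dimmer probes were called at −0.73 (adjusted p = 0.012) and −0.95 (adjusted p = 0.00061). Pfkp, the platelet form, rose by 1.06. Pdk3 rose by 0.89, beside −0.39 for Pdk4 (adjusted p = 0.51), both kinases that switch off pyruvate dehydrogenase. Both members of 1 pair passed the test in opposite directions. Ckm, muscle creatine kinase, fell by 0.82 and Ckb, the brain form, rose by 0.42 (adjusted p = 0.040), a call lost without any 1 of the 6 hearts and with arrays scaled by their median. Pairs of atrial and ventricular light chains and of SERCA pumps ran the other way, with Myl7 and Atp2a3 as the members that fell. So did tropomyosin, whose adult form was the only adult form called higher (0.47, beside 0.08 for the other form). In cytochrome oxidase 7a, which also ran the other way, neither form passed the test.

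**Figure D3:**
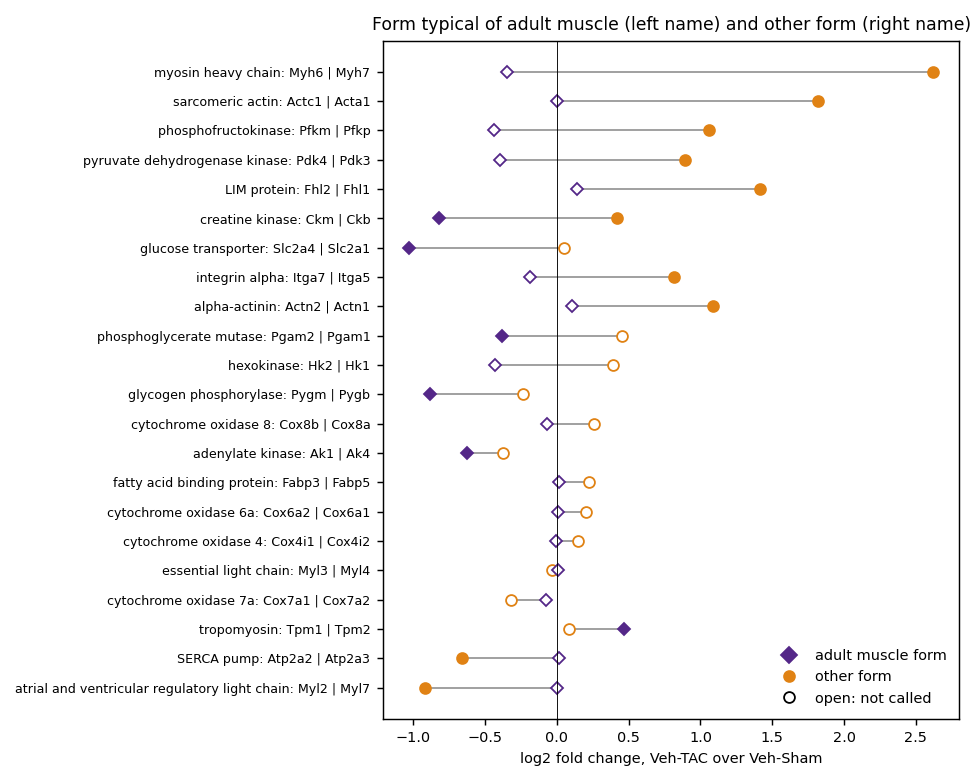
Log2 fold change in Veh-TAC against Veh-Sham hearts (x axis) of the other form and of the adult form in the 22 measured pairs, 1 row a pair. In 17 rows the other form lies to the right of the adult form, most of all for myosin heavy chain (Myh7 at 2.62, Myh6 at −0.35).

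Genes that respond early to growth signals gave 6 rises among 15 measured and no fall, with 2 rises left without T8, 3 without T9 and 3 without S6. Egr2 rose 3.36-fold, with 8.29, 9.41 and 9.53 in Veh-TAC hearts against 7.21, 7.09 and 7.69 in Veh-Sham hearts. Egr1 did not pass the test (log2 fold change 0.33, adjusted p = 0.60). Of 22 transcription factors of the heart 1 rose and 3 fell, with 1 fall left without T9 or S6. Nfatc4, which calcineurin brings to the nucleus, rose 1.89-fold, and Prox1, a homeobox factor of the sarcomere programme, was 1.80-fold lower with 10.16, 9.88 and 10.02 in Veh-TAC hearts and 10.86, 10.86 and 10.88 in Veh-Sham hearts, a call lost with the mean of its probes.

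Among electrical genes, more ion channels fell than rose. Of 29 potassium, sodium and pacemaker channel genes 12 fell and 4 rose, with a median of −0.49, and 8 to 12 fell without any 1 heart. The falls were 6 with arrays scaled by their median, and so were the rises. The rises were 2 without T3, S3 or S6. Besides Scn4b, Kcnv2, a modifier subunit of potassium channels, was 3.58-fold lower, Kcnd2, which carries the transient outward current, 2.61-fold, and Kcnj3, the atrial muscarinic channel, 2.10-fold. Kcnd2 had 6.61, 6.63 and 6.47 in Veh-TAC hearts against 8.11, 7.65 and 8.11 in Veh-Sham hearts, without overlap. Fxyd6, a regulator of the sodium pump, rose 2.49-fold. In calcium handling 9 of 32 genes fell (5 without T8 or T9 and 6 without S4, and 4 with arrays scaled by their median) and 2 rose. The 2 rises were none without T9, S3 or S6, and 1 without T3 or T8. Hrc, the histidine-rich calcium-binding protein of the sarcoplasmic reticulum, was 2.32-fold lower with 13.72, 13.44 and 13.30 in Veh-TAC hearts and 14.83, 14.41 and 14.86 in Veh-Sham hearts. Camk2a was 2.07-fold and Camk2b 2.03-fold lower, and the Camk2b call was lost with arrays scaled by their median. Sln, sarcolipin, did not pass the test (log2 fold change −0.20, adjusted p = 0.31). Adrenergic, angiotensin and natriuretic receptors and their G-protein partners gave 4 rises (2 without T8, S4 or S6) and 4 falls (2 without T8) among 26. That is 15.4% each way, beside 12.5% each way over all genes. Agtr1a, the angiotensin receptor, was 1.54-fold lower, another call lost with median scaling.

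Fibril-forming collagens had the highest median of the 57 function lists. Of 5 measured fibril-forming collagens 4 rose, with a median log2 fold change of 2.55, whichever heart was left out. Col1a1, the main chain of scar collagen, had 11.72, 12.68 and 11.50 in Veh-TAC hearts against 9.40, 8.42 and 9.10 in Veh-Sham hearts, and rose 7.98-fold (adjusted p = 0.00051). Col3a1, of the finer fibrils, had 12.38, 12.90 and 12.62 in Veh-TAC hearts against 10.23, 9.79 and 9.71 in Veh-Sham hearts, and rose 6.61-fold. T8 was the highest heart for both, and no Veh-TAC heart reached down to the Veh-Sham range. Col1a2 rose 5.86-fold and Col5a1, which nucleates the fibrils, 3.75-fold. Of 10 other collagens 9 rose (7 without T8 or S4), with a median of 1.23. Col16a1, which sits on fibril surfaces, had 11.25, 12.38 and 11.66 in Veh-TAC hearts and 9.06, 8.64 and 9.10 in Veh-Sham hearts. Col14a1, another such collagen, rose 3.38-fold and was detected in 2 of 3 Veh-Sham hearts.

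Enzymes that mature collagen gave 10 rises and 1 fall among 18 measured (8 to 10 rises without any 1 heart). Besides Lox, Loxl1 rose 2.86-fold and Bmp1, which trims procollagen, 3.27-fold. The fall was P3h4, a partner of collagen hydroxylases, 1.60-fold lower, a call lost with arrays scaled by their median. Elastic fibre genes gave 8 rises and 1 fall among 14, with a median of 1.09, whichever heart was left out. Eln, elastin, had 11.95, 12.94 and 12.15 in Veh-TAC hearts and 9.28, 9.02 and 8.78 in Veh-Sham hearts. Mfap5 had 13.05, 13.28 and 13.44 in Veh-TAC hearts and 9.99, 9.98 and 9.73 in Veh-Sham hearts. The microfibril proteins Mfap4 (5.60-fold) and Mfap2 (4.30-fold) rose beside them, and Emilin2, a glycoprotein of the elastic fibre surface, was 2.18-fold lower with 9.41, 9.10 and 9.20 in Veh-TAC hearts and 10.46, 10.12 and 10.51 in Veh-Sham hearts.

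Proteoglycans gave 6 rises and no fall among 17, with 4 rises left without T8. Fmod, fibromodulin, rose 3.73-fold, Lum, lumican, 2.42-fold and Bgn, biglycan, 2.36-fold, all of which bind collagen fibrils. Dcn, decorin, of the same family, had 15.69, 15.62 and 15.57 in Veh-TAC hearts and 15.66, 15.50 and 15.64 in Veh-Sham hearts, with a log2 fold change of 0.03 (SE 0.10, adjusted p = 0.86). Matricellular proteins, which signal from the matrix rather than build it, gave 11 rises and 1 fall among 20 (9 to 13 rises without any 1 heart, no fall without T8, T9 or S3, median 0.83). Ccn2, connective tissue growth factor, had 14.85, 15.73 and 15.35 in Veh-TAC hearts against 13.29, 13.21 and 13.68 in Veh-Sham hearts, and rose 3.78-fold. Its relatives Ccn4 and Ccn5 rose 5.51-fold and 5.44-fold, and Fstl1, follistatin-like 1, 5.01-fold. Among matrix proteases and their inhibitors 6 of 20 rose (6 to 8 without any 1 heart) and 1 fell (none without T8, T9, S3 or S6). Timp1, the inhibitor of metalloproteinases, had 11.95, 12.15 and 12.06 in Veh-TAC hearts and 9.03, 9.10 and 8.66 in Veh-Sham hearts. Mmp14 rose 3.42-fold and Mmp2, which it activates, 3.24-fold, while Mmp9 had a log2 fold change of −0.39 (adjusted p = 0.19). Laminins and basement membrane genes gave 1 rise (9.09%) and 2 falls (18.2%) among 11, beside 12.5% each way over all genes. Their median was 0.18.

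Signals that act on fibroblasts were mixed. Of 28 TGF-β and BMP genes 7 rose and 1 fell, with a median of 0.07, and 4 rose without T8. Among the ligands, Tgfb3 rose 2.66-fold with 9.78, 10.50 and 10.15 in Veh-TAC hearts and 8.73, 8.51 and 8.95 in Veh-Sham hearts. Tgfb2 rose 1.92-fold (adjusted p = 0.018), called in 4 of the 6 fits without a heart, and Tgfb1 had a log2 fold change of −0.26 (adjusted p = 0.097). Inhba, a subunit of activin, rose 2.39-fold. Among the receptors, Tgfbr1 rose 1.80-fold, Tgfbr3 was 1.71-fold lower, a call lost with median scaling, and Tgfbr2 had 0.41 (adjusted p = 0.071), a value called with median scaling. Smad2 and Smad3, which carry the signal to the nucleus, had −0.16 (adjusted p = 0.26) and −0.43 (adjusted p = 0.066). Of 19 Wnt genes 4 rose and 3 fell (1 without T8, T9 or S3), and the median of −0.06 became 0.07 with arrays scaled by their median. The rises included the secreted Wnt inhibitors Sfrp2, Frzb (4.12-fold) and Sfrp1 (2.47-fold), and the ligand Wnt5a was 2.34-fold lower. Sfrp2 had 11.51, 12.69 and 11.67 in Veh-TAC hearts and 8.81, 9.04 and 8.81 in Veh-Sham hearts.

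Among 25 genes of the IGF, FGF, PDGF and midkine families 5 rose (4 or 5 without any 1 heart) and 7 fell, with 4 falls left without T8 or T9 and 3 without S3. Ptn had 11.33, 11.76 and 11.71 in Veh-TAC hearts and 8.26, 8.21 and 8.01 in Veh-Sham hearts, and its relative Mdk, midkine, rose 4.15-fold. Igf1 rose 2.10-fold and Hbegf, a ligand of the EGF receptor, 2.33-fold. Fgf16, a growth factor of heart muscle, was 2.45-fold lower. Of 35 angiogenic genes 4 rose (2 without T8, S3 or S4) and 2 fell. That is 11.4% and 5.71%, beside 12.5% each way over all genes. Vegfd rose 3.01-fold, and Angpt1, which steadies vessels, was 2.35-fold lower with 8.40, 8.09 and 8.48 in Veh-TAC hearts against 9.49, 9.50 and 9.66 in Veh-Sham hearts. Edn1, endothelin, rose 1.88-fold.

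Among genes of innate immunity more rose than fell. Of 21 chemokine genes and receptors 8 rose and 2 fell, with a median of 0.48 (6 or 7 rises without any 1 heart, and 12 with median scaling). The ligands of monocyte receptors rose, with Ccl12 at 10.47, 10.59 and 11.05 in Veh-TAC hearts and 8.93, 8.51 and 8.16 in Veh-Sham hearts (4.50-fold), and Ccl8 at 10.13, 10.23 and 10.38 in Veh-TAC hearts and 7.94, 8.06 and 8.07 in Veh-Sham hearts (4.66-fold). Ccl4 rose 7.02-fold and was detected in 2 of 3 Veh-Sham hearts. Ccl11, eotaxin, went the other way with 6.80, 6.75 and 6.70 in Veh-TAC hearts and 8.21, 8.44 and 8.39 in Veh-Sham hearts (3.03-fold lower), as did Cxcl14 (1.98-fold lower). Cytokines and their receptors gave 6 rises and 4 falls among 20. Il1b, interleukin 1β, was detected in no Veh-Sham heart and was at least 2.01-fold higher, with 6.94, 7.38 and 7.10 in Veh-TAC hearts and 5.18, 5.34 and 5.71 in Veh-Sham hearts (adjusted p = 0.00013). Tnfrsf12a, the receptor of TWEAK, rose 3.67-fold and Tnfrsf11b, osteoprotegerin, 4.60-fold, the second detected in 2 of 3 Veh-Sham hearts. Il15 was 2.55-fold lower and Lifr, the LIF receptor, 1.75-fold lower.

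Complement genes gave 7 rises and 1 fall among 15 (3 rises without T8, and no fall without T8, T9, S3 or S6), and C1qb, of the first component, rose 1.99-fold. C1qa had a log2 fold change of 0.65 (adjusted p = 0.059), a value called with median scaling. Of 30 interferon-stimulated genes 12 rose and none fell, with 6 rises left without T8 and 7 without S6 (12 rises with median scaling). Their sizes were modest, the highest log2 fold change being 1.00 for Ifi30, a thiol reductase of antigen processing. Antigen presentation gave 4 rises and no fall among 17, with 1 rise left without T3, T8 or S6 and 2 without S3. S100 proteins and annexins, which bind calcium in injured and inflamed tissue, gave 7 rises and no fall among 16 (5 to 7 without any 1 heart). S100a11 had 13.77, 14.20 and 13.85 in Veh-TAC hearts and 12.68, 12.70 and 12.67 in Veh-Sham hearts (2.39-fold), and Anxa3 rose 2.39-fold.

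Marker genes of cell types moved with these groups. Of 16 measured markers of macrophages in general 15 rose (12 or 13 without any 1 heart), with a median of 1.02. Their summed signal was 34433 to 39177 in Veh-TAC hearts and 18426 to 18911 in Veh-Sham hearts. Ms4a7 had 11.56, 11.95 and 12.02 in Veh-TAC hearts and 9.43, 9.57 and 8.91 in Veh-Sham hearts (5.81-fold), Trem2 rose 3.89-fold and Cx3cr1, the fractalkine receptor, 2.81-fold. Of 10 markers of resident macrophages 1 rose and 1 fell (2 without T3), with a summed signal of 7724 to 10569 in Veh-TAC hearts and 9168 to 10128 in Veh-Sham hearts. The fall was Retnla, and the rise was Mrc1, the mannose receptor (1.36-fold, adjusted p = 0.044), called in 1 of the 6 fits without a heart. Only 3 of the 10 listed markers of monocytes were measured. All 3 rose, among them Plac8 (4.83-fold), which heart T8 topped at 9.97 against 8.52 in T3 and 8.51 in T9. Lyz2, a lysozyme of myeloid cells, rose 1.94-fold. Neutrophil markers gave 1 rise among 5 (3 without T9), and Lcn2, lipocalin 2, rose 3.12-fold.

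Markers of activated fibroblasts rose in 7 of 9, whichever heart was left out, with a median of 2.01 and a summed signal of 47811 to 63945 in Veh-TAC hearts and 30755 to 40715 in Veh-Sham hearts. Lox, Tnc and Sfrp2, given above, are among them, and Acta2, smooth muscle actin, had a log2 fold change of 0.15 (adjusted p = 0.49). Fibroblast markers gave 7 rises and 2 falls among 13 (6 or 7 rises without any 1 heart, and 1 fall without T8, T9 or S3), with a summed signal of 85943 to 95742 in Veh-TAC hearts and 63438 to 69393 in Veh-Sham hearts. The falls included Gsn, gelsolin (2.61-fold lower). Several matrix genes are members of these marker lists, and the part of cell numbers in the matrix and immune results was not tested. Markers of ventricular cardiomyocytes had 1 fall among 14 and a summed signal of 624088 to 655803 in Veh-TAC hearts and 635258 to 666280 in Veh-Sham hearts, a sum in which several members are saturated. Atrial markers fell in 4 of 9, whichever heart was left out, with a median of −0.58, and included Myl7, Kcnj3 and Stard10 (3.05-fold lower). Their sum was 180300 to 198233 in Veh-TAC hearts and 202293 to 213838 in Veh-Sham hearts, and the share of atrium in each heart was not tested. Endothelial markers gave 1 rise and 1 fall among 13 (no rise without T8 or S6, and no fall without T9 or S6). Markers of smooth muscle cells and pericytes gave 1 rise and 2 falls among 13 (1 fall with any heart but T3 left out). Of that list Abcc9, a potassium channel subunit, was 2.49-fold lower, and which cells carried it was not tested. Erythroid markers had a median of −1.14 and a sum of 42373 to 77948 in Veh-TAC hearts and 83226 to 84434 in Veh-Sham hearts. Their 2 falls were 4 without T3 and none without any other heart. Of 6 adipocyte markers 1 fell, Car3 (3.53-fold lower, adjusted p = 0.049), a call lost without any 1 heart and without background correction, and Adipoq, adiponectin, had −1.66 (adjusted p = 0.066). None of the 2 thymus and 2 lung markers measured passed the test.

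**Figure D4:**
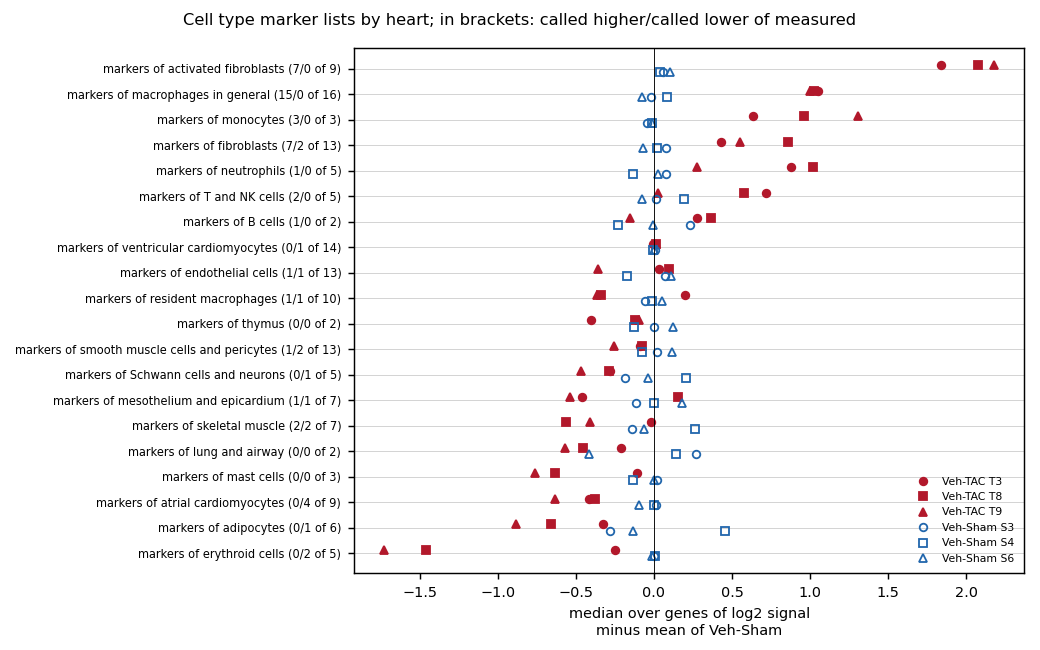
Median over the measured markers of each cell type of log2 signal minus the mean of the Veh-Sham hearts (x axis), 1 row a cell type, with filled points for Veh-TAC hearts and open points for Veh-Sham hearts. By the median log2 fold change, activated fibroblasts (median 2.01) and macrophages (1.02) lie to the right, and atrial cardiomyocytes (−0.58) and erythroid cells (−1.14) to the left.

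The cytoskeleton, which grows with an enlarging cell and in migrating ones, gave 19 rises and 2 falls among 42 actin and tubulin genes (14 to 18 rises without any 1 heart), with a median of 0.56. Actn1, the non-muscle actinin, had 10.92, 11.65 and 10.96 in Veh-TAC hearts and 10.09, 10.10 and 10.07 in Veh-Sham hearts (2.13-fold). Tuba4a, a tubulin, was 2.49-fold lower. Actb, cytoplasmic actin, the usual scaling gene of PCR, had a log2 fold change of 0.12 (SE 0.13, adjusted p = 0.54) on its brightest probe. Its other probes had 0.96, which was called, and −0.67, 0.34 and −0.75, which were not. Over the called genes with more than 1 probe, the second probe had the same sign in 485 of 511. Integrins and adhesion genes gave 7 rises and 2 falls among 24 (6 to 8 rises). Itgbl1 had 12.03, 12.98 and 12.32 in Veh-TAC hearts and 9.75, 9.91 and 9.88 in Veh-Sham hearts (6.04-fold), and Itga11, a collagen receptor of fibroblasts, rose 3.90-fold. Itgb6, an epithelial integrin, had 9.38, 9.01 and 8.77 in Veh-TAC hearts and 10.65, 10.69 and 10.66 in Veh-Sham hearts (3.06-fold lower).

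Most of the mitosis genes that could be measured, 16 of 51 in the list, were higher in the loaded hearts. Of 16 measured mitosis genes 12 rose and 1 fell, with a median of 1.22 (9 to 12 rises without any 1 heart). Prc1, which bundles the microtubules between separating chromosomes, had 10.13, 9.67 and 9.79 in Veh-TAC hearts and 7.55, 6.59 and 6.70 in Veh-Sham hearts. Anln, anillin, of the contractile ring, rose 6.02-fold, with 9.27, 9.05 and 9.03 in Veh-TAC hearts and 6.05, 6.99 and 6.54 in Veh-Sham hearts, and was detected in 2 of the 3 Veh-Sham hearts. Heart T3, with the fewest genes past 2-fold, was the highest Veh-TAC heart in both. Kif22, a chromosome motor, rose 3.79-fold. Bub3, of the spindle checkpoint, was the member that fell (1.62-fold lower), a call lost with median scaling. DNA replication genes gave 6 rises and 4 falls among 27, but the rises were 2 without S6 and 3 without T3, and the falls were 2 without T8, T9 or S3. Uhrf1, which carries DNA methylation through replication, rose 3.45-fold (detected in 2 of 3 Veh-Sham hearts), and Cdc6, which licenses origins, was detected in no Veh-Sham heart and was at least 1.36-fold higher (adjusted p = 0.028, means of 6.58 in Veh-TAC and 5.67 in Veh-Sham hearts, called in 3 of the 6 fits without a heart and not on the normalized values of the authors). Cyclins, their kinases and inhibitors gave 5 rises and 1 fall among 22. Cdk1, the mitotic kinase, rose with 7.89, 7.79 and 7.68 in Veh-TAC hearts and 6.02, 6.58 and 5.51 in Veh-Sham hearts, of which 1 was detected, so that its fold is not well measured (log2 fold change 1.75, or 0.58 without background correction). The inhibitors rose too, Cdkn1a (p21) 2.74-fold and Cdkn2b (p15) 3.43-fold, while Cdkn1c (p57) was 1.78-fold lower. E2f1 rose 2.25-fold. Which cells carried these transcripts cannot be read from whole hearts.

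The promoters of Prc1 and Cdk1 are shown because many genes of mitosis are known for the CHR element TTTGAA and CCAAT boxes (ATTGG on the other strand), both marked by capitals. They lie at chr7:80294201-80294500 (plus strand, Prc1) and chr10:69352863-69353162 (minus strand, Cdk1) of GRCm38.p6, again 250 bases before to 50 after the start in RefSeq.
Prc1: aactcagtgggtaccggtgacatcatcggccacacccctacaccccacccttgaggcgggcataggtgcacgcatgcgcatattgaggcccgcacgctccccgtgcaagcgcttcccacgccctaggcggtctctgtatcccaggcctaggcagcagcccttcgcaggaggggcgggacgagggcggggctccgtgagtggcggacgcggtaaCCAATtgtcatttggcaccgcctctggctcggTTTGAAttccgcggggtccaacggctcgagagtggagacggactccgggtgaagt
Cdk1: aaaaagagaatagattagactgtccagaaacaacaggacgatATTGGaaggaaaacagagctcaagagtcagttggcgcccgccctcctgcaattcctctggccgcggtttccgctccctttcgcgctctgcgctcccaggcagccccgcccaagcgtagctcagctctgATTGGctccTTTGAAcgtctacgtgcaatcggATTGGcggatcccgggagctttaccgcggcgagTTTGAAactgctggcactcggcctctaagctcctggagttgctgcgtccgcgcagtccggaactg
Read on both strands, the CHR letters stood in 9 of the 15 mitosis genes with a promoter in the table (60%), against 11.7% of all tested promoters and 18.1% of the 27025 promoters of the whole table. CCAAT stood in 10 of the 15 (66.7%), against 38.8% of all tested. The marked matches do not overlap one another. Over all called genes there was no such lean, with the CHR letters in 12.7% of the rises and 12.6% of the falls, and CCAAT in 35.8% and 42.6%. The measured mitosis genes were chosen by function, and these shares are a description of letters.

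Protein synthesis moved little. Of 54 cytosolic ribosomal protein genes 1 rose, Rpl3 (1.40-fold), and none fell, with a median of 0.04. Ribosome biogenesis had 2 falls among 23 (none without T8 or S3, and 1 without T9 or S6), translation factors 3 rises and 1 fall among 31 (no fall without T9 or S6, and 2 without T3), and tRNA synthetases 3 falls among 16 (1 without T8, T9 or S3). In the endoplasmic reticulum, chaperones and folding enzymes gave 4 rises (3 or 4 without any 1 heart) and 1 fall among 33, with a median of 0.10. That is 12.1% and 3.03%, beside 12.5% each way over all genes. The fall was none without T8 or T9 and 4 without T3. Txndc5 had 11.43, 11.62 and 11.31 in Veh-TAC hearts and 10.80, 10.80 and 10.77 in Veh-Sham hearts (1.58-fold), and P4hb, which also serves collagen hydroxylation, rose 1.58-fold. The classical chaperones did not pass the test. Hspa5, which encodes GRP78, had 8.47, 7.60 and 7.79 in Veh-TAC hearts and 9.07, 8.20 and 8.70 in Veh-Sham hearts (log2 fold change −0.70, SE 0.36, adjusted p = 0.18), with overlapping groups. Hsp90b1, which encodes GRP94, had −0.09 (adjusted p = 0.76) and Calr, calreticulin, −0.44 (adjusted p = 0.096).

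The unfolded protein response beyond the chaperones gave 4 rises and 1 fall among 22, with a median of 0.36 (3 or 4 rises without any 1 heart, 7 with median scaling). Nupr1, a stress protein of the nucleus, had 10.70, 11.42 and 11.11 in Veh-TAC hearts and 8.75, 8.70 and 8.80 in Veh-Sham hearts (5.01-fold, adjusted p = 3.7e-05). Atf4, the factor made when translation is held back, rose 2.17-fold with 8.98, 9.67 and 9.91 in Veh-TAC hearts and 8.61, 8.17 and 8.43 in Veh-Sham hearts. Atf3, counted with the early genes, rose 2.24-fold (adjusted p = 0.017, called in 3 of the 6 fits without a heart) and Ppp1r15a, which releases the hold, 2.08-fold. Ddit3, which encodes CHOP, had 8.75, 9.09 and 9.40 in Veh-TAC hearts and 8.38, 8.44 and 8.15 in Veh-Sham hearts, without overlap (1.69-fold, adjusted p = 0.044, called in 1 of the 6 fits). A second, dimmer probe of Ddit3 had a log2 fold change of 1.00 (adjusted p = 0.011). Eif2ak3, which encodes PERK, had a log2 fold change of 0.48 (adjusted p = 0.26), and Xbp1, of the IRE1 branch, −0.31 (adjusted p = 0.10). Cytosolic chaperones gave 2 rises among 28 (1 without T8, S4 or S6), of which Hspa1l rose 2.09-fold.

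The promoters of Atf3 and Nupr1 hold the composite site that ATF4 is known to bind, TGATGNAAN, read here on the other strand and set in capitals. They lie at chr1:191183284-191183583 and chr7:126625421-126625720 of GRCm38.p6, both on the minus strand.
Atf3: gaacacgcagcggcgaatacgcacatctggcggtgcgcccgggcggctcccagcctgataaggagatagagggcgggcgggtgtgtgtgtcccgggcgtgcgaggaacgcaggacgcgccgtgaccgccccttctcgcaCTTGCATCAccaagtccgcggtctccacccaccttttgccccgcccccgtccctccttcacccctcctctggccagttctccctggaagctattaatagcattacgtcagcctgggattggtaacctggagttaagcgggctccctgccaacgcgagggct
Nupr1: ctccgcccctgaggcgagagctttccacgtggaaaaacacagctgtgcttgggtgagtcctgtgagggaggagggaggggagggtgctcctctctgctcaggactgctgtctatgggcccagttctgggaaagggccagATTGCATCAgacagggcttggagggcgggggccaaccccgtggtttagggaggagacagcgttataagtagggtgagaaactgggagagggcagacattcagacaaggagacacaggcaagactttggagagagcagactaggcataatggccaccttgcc
The match began at −111 in both. On both strands it stood in 3 of the 19 genes of the unfolded protein response with a promoter (15.8%). Atf3, counted with the early genes, is not among these 19. The match stood in 2.28% of all tested promoters, with 2.55% of the called rises and 2.22% of the called falls.

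Lysosomal genes gave 14 rises and 2 falls among 23, with a median of 0.41 (8 rises without T8 and 9 without S3, 16 with median scaling, and 1 fall without T8, T9, S3 or S6). Macrophage markers rose in 15 of 16 in the same hearts, and their part in this count was not tested. Ctsk, the collagen-degrading cathepsin K, had 11.10, 11.62 and 11.43 in Veh-TAC hearts and 9.16, 9.18 and 9.05 in Veh-Sham hearts (4.78-fold), and Ctss rose 2.66-fold. Ctsf was 1.57-fold lower, a call lost with median scaling. The proteasome had 2 rises and 2 falls among 33 (at most 1 fall without any 1 heart). Autophagy and the muscle ubiquitin ligases had 3 falls among 22, whichever heart was left out, 1 with median scaling, and no rise (2 without T3). Pink1, which marks damaged mitochondria, had 11.95, 11.96 and 11.95 in Veh-TAC hearts and 12.93, 12.81 and 13.08 in Veh-Sham hearts (1.98-fold lower), and Trim63, the ligase MuRF1, was 1.54-fold lower, a call lost with median scaling. Of 28 genes of the BCL2 family, caspases and p53 targets 10 rose (6 without T8) and 2 fell (at most 1 without any 1 heart). Bcl2, which protects from apoptosis, rose 2.10-fold and Bbc3 (PUMA), which promotes it, 1.97-fold, each on its brightest probe. Dimmer probes of Bbc3 had log2 fold changes of 0.12 (adjusted p = 0.75) and 0.07 (adjusted p = 0.92). Those of Bcl2 had 0.60 (adjusted p = 0.069) and 0.89 (adjusted p = 0.022).

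Genes of fat oxidation fell without a single rise. Of 39 genes of fatty acid uptake and β-oxidation 21 fell and none rose, with a median of −0.60, and 17 to 21 fell without any 1 heart. The falls were 19 with arrays scaled by their median. Acaa2, the thiolase of the last step, had 13.01, 12.52 and 12.49 in Veh-TAC hearts and 13.83, 13.73 and 13.93 in Veh-Sham hearts (2.23-fold lower). Hadh, of the step before it, had 8.23, 7.78 and 7.59 in Veh-TAC hearts and 9.14, 8.82 and 9.11 in Veh-Sham hearts (2.23-fold lower). The groups did not overlap in either gene, and T3 again lay nearest to the Veh-Sham hearts. Fitm1, which buds lipid droplets, was 2.88-fold lower, and Fabp3, the fatty acid binding protein of muscle, was saturated in all 6 hearts. PPARα targets and thioesterases gave 12 falls and 1 rise among 27 (7 falls without T8, 8 with median scaling, and no rise without T8, S3 or S4). Acot1 had 10.82, 9.98 and 10.18 in Veh-TAC hearts and 12.23, 12.66 and 12.49 in Veh-Sham hearts. Aqp7, a glycerol channel, was 2.61-fold lower. Of 18 PGC-1, ERR and PPAR regulators 7 fell (4 without T8) and 2 rose (none without T9, and 1 without T8 or S3), and 1 fell with median scaling. Perm1, a muscle regulator of this programme, was 1.58-fold lower and Gabpa 1.55-fold lower, the second call lost with median scaling, while Ppargc1a (PGC-1α) had a log2 fold change of 0.36 (adjusted p = 0.31).

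The tricarboxylic acid cycle and pyruvate dehydrogenase had 13 falls and 2 rises among 29, with a median of −0.37 (6 falls without T8 or S6, 7 without S3, 7 with median scaling). Pdp2, the phosphatase that switches pyruvate dehydrogenase on, had 11.19, 10.44 and 10.49 in Veh-TAC hearts and 12.25, 11.88 and 12.25 in Veh-Sham hearts (2.68-fold lower), Pdk2 was 2.04-fold lower and Dlat 1.93-fold lower. Subunits of a single enzyme split, with Idh3a 1.57-fold lower and Idh3b 1.63-fold higher. Idh3a had 13.62, 13.37 and 13.40 in Veh-TAC hearts and 14.20, 14.06 and 14.08 in Veh-Sham hearts, and Idh3b had 11.27, 11.82 and 11.68 in Veh-TAC hearts and 11.02, 10.86 and 10.79 in Veh-Sham hearts. Respiratory complex I had 15 falls and no rise among 36, with no member above a log2 fold change of −0.01. Its falls were 5 without T8, 7 without T9, S3 or S4 and 9 without S6, and 6 with median scaling. Ndufa3 was 1.58-fold lower, and Ndufb11, detected in no Veh-TAC heart, at least 1.57-fold lower (adjusted p = 0.0095, means of 5.64 in Veh-TAC and 6.64 in Veh-Sham hearts). Complexes III to V had 5 falls and 2 rises among 47, with 1 fall left without T8, 2 without T9 or S3 and 3 without S6, 1 with median scaling, and no rise without any 1 heart but T3. Uqcrc1, a core protein of complex III, was 1.56-fold lower. The mitochondrial ribosome and import had 21 falls and 1 rise among 82, with 6 falls left without T8, 10 without S4, 13 without T9 or S3 and 5 with median scaling, and no rise without any 1 heart but S4. Mrpl51, of the large subunit, was 1.61-fold lower.

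Other fuels followed in part. Branched-chain amino acid and ketone catabolism had 9 falls and 2 rises among 21, with 3 falls left without T8 or T9, 4 without S4, 5 without S3 or S6 and 3 with median scaling, and 1 rise without T9 or S4. Bckdhb, of the committed step, had 10.94, 10.86 and 10.96 in Veh-TAC hearts and 11.72, 12.21 and 11.91 in Veh-Sham hearts (2.04-fold lower), Ppm1k, which switches that enzyme on, was 2.06-fold lower, and Bdh2 rose 2.28-fold. Glucose uptake, glycolysis and glycogen had 2 rises and 5 falls among 32 (2 falls without T8 and 3 without T9, S3 or S6). Fbp2, the bisphosphatase of muscle, was 2.88-fold lower, and Eno2, neuronal enolase, rose 1.94-fold. Pentose phosphate, one-carbon and nucleotide synthesis had 4 rises and 8 falls among 28 (2 rises with any heart but S4 left out). Uck2, of pyrimidine salvage, had 13.71, 13.93 and 13.82 in Veh-TAC hearts and 11.93, 11.83 and 11.68 in Veh-Sham hearts (4.02-fold), while Cad and Gart, of pyrimidine and purine synthesis, were 1.73-fold and 1.68-fold lower. Creatine kinase and phosphate transfer had 6 falls and 1 rise among 18 (4 falls without T8, 3 with median scaling, and no rise without any 1 heart but T3), of which Ckm had 13.75, 13.18 and 13.17 in Veh-TAC hearts and 14.40, 14.04 and 14.12 in Veh-Sham hearts.

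Genes of redox defence gave 8 rises (15.7%) and 10 falls (19.6%) among 51, beside 12.5% each way over all genes (7 or 8 rises and 7 to 10 falls without any 1 heart). Nox4, an oxidase that makes hydrogen peroxide, had 9.46, 10.31 and 9.81 in Veh-TAC hearts and 7.26, 7.08 and 6.77 in Veh-Sham hearts. Hmox1, heme oxygenase, rose 4.72-fold and Mt2, a metallothionein, 3.49-fold. Gstk1, the glutathione transferase of mitochondria and peroxisomes, was 2.43-fold lower and Gsta3 2.32-fold lower. Cholesterol synthesis and uptake had 1 rise and 4 falls among 21 (2 falls without T8, T9 or S4), with Srebf1 2.28-fold lower and detected in 2 of 3 Veh-TAC hearts. Clock and output genes had 2 rises and no fall among 18 (1 rise without S3 or S4), and Fkbp5, which glucocorticoids induce, rose 3.01-fold. Splicing factors had 1 rise (none without T8 or S6) and 3 falls among 39, among them Rbfox1, a splicing regulator of heart muscle, with 10.51, 10.11 and 10.21 in Veh-TAC hearts and 11.78, 11.41 and 11.96 in Veh-Sham hearts (2.70-fold lower).

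**Figure D5:**
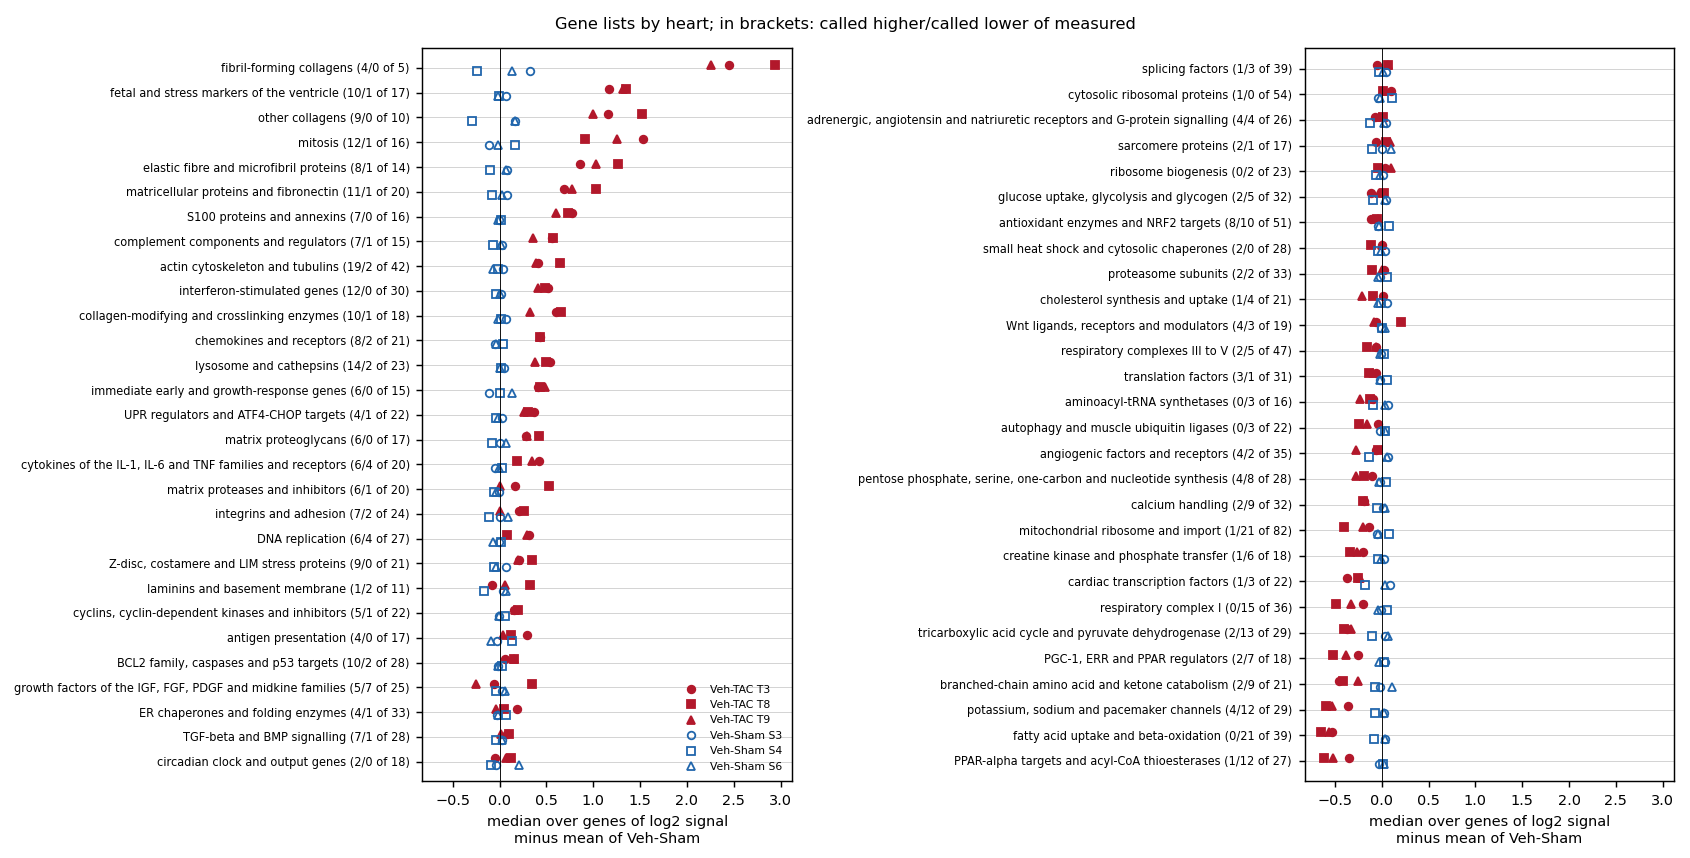
Median over the measured genes of each function list of log2 signal minus the mean of the Veh-Sham hearts (x axis), 1 row a list, with filled points for Veh-TAC hearts and open points for Veh-Sham hearts, and in brackets the genes called higher and lower. Fibril-forming collagens (median log2 fold change 2.55) lie farthest right, and PPARα targets (−0.62) and fatty acid oxidation (−0.60) farthest left.

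The 57 function lists held 1455 measured genes, of which 271 were called higher and 221 lower. The other 1593 called genes belonged to none of them. Without background correction, list medians given above that moved by more than 1.5 times were 1.24 for activated fibroblasts, 0.46 for mitosis, 0.45 for matricellular proteins, 0.36 for actin and tubulin genes, 0.32 for chemokines, 0.22 for the unfolded protein response, −0.20 for atrial markers, −0.23 for the channels, −0.28 for PPARα targets and −0.51 for erythroid markers. Calls were rarer among dim genes, with 17.9% called in the dimmest of 4 equal classes of mean signal, and 27.6%, 28.8% and 25.8% in the classes above it.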

How the data were processed

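Per the labels, total RNA of each heart was hybridized to a mouse ref-8 v2 bead array and extracted with GenomeStudio, and no batch or slide is given in the sources used here. The authors deposited raw mean bead intensity for 25697 probes, beside a detection p-value from negative controls, and a second table in log2 units that covers 11732 probes and equals the quantile-normalized log2 intensities of the probes detected on at least 8 arrays. Background was taken off the raw intensities by nec of limma 3.58.1 in R 4.3.3 (normexp, offset 16), followed by quantile normalization and log2. Probes detected (p under 0.05) on at least 3 of 13 arrays were kept, and the brightest stood for each gene with a symbol. A symbol came only with probes of that second table. Members and gene lists were chosen with earlier results of these data known. With limma and eBayes, 1 mean for each of the 4 groups was estimated over 13 arrays, and p-values were adjusted over 8336 genes. Genes were named if the article names them, among the 15 largest rises or falls without overlap, among the leading members of a list, or in an isoform pair. Only some of the 500 genes this names are printed. The fit was tested on simulated data. Precision rests on the number of arrays.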

Additional observations from a re-analysis of the deposited data

Results flagged for a closer look

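The response to TAC differed between TUDCA-treated and vehicle-treated hearts in 44 of the 212 genes named here, by limma's test of the difference itself (adjusted p 0.012 to 0.049 over 8336 genes, of which 178 passed). All 44 had a smaller response with TUDCA, as did 174 of the 178. Many of the named genes were chosen for a large response of the vehicle-treated hearts, so this direction is no separate result. The values are the response of TUDCA-treated hearts minus that of vehicle-treated hearts on the log2 scale, so that a negative value belongs to a gene that rose less with TUDCA. Sfrp2 changed by 0.31 with TUDCA and by 3.07 with vehicle, and Nox4 by 0.21 with TUDCA and by 2.83 with vehicle. Both were among the 15 largest rises of vehicle-treated hearts.

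Among matrix genes and their signals the difference was −2.76 for Sfrp2, −2.61 for Matn4, −2.61 for Ptn, −2.40 for C1qtnf3, −1.88 for Mdk, −1.86 for Col3a1, −1.84 for Lox, −1.79 for Itgbl1, −1.76 for Col1a2, −1.70 for Mfap2, −1.65 for Ccn4, −1.65 for Itga11 and −1.32 for Frzb. It was 1.18 for Emilin2, 1.42 for Itgb6 and 1.10 for Wnt5a, which had fallen. Among genes of macrophages, chemokines and lysosomes it was −1.83 for Ctss, −1.70 for Ctsk, −1.70 for Ms4a7, −1.51 for Trem2, −1.41 for Ccl12, −1.38 for Lyz2 and 1.01 for Ccl11. Among stress, growth and redox genes it was −2.62 for Nox4, −1.91 for Mt2, −1.78 for Uchl1, −1.64 for Ddah1, −1.55 for Cdkn2b, −1.26 for Nupr1, −1.20 for Csrp2, −1.09 for Fxyd6 and −0.87 for Cdkn1a. In metabolism it was −1.51 for Bdh2, −1.14 for Eno2, −0.94 for Pdk3, 1.69 for Ces1d, 1.33 for Acot1 and 0.66 for Idh3a. The remaining falling genes were Ano10 (1.78), Scn4b (1.51), Camk2a (1.36), Gm14685 (0.96), Prox1 (0.67) and Trim63 (0.66).

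Which genes pass this test rests on single hearts. Of the 212, 79 passed without T3, 7 without T8, 5 without T9, 9 without S3 or S4 and 6 without S6. Without a TUDCA-Sham heart 22, 6 or 12 passed, and without a TUDCA-TAC heart 28, 19, 13 or 45. One TUDCA-TAC array stood apart, with a raw median of 229 and a ratio of the 90th to the 25th raw percentile of 19.3, and 28 is the count without it. Markers of macrophages and of fibroblasts are among these genes, and the part of cell numbers was not tested. The vehicle-treated hearts enter both the choice of the leading genes and the difference, which by itself favours a smaller response with TUDCA.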

How the results depend on the processing

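Called genes numbered 2085 in the fit used here and 1713 to 2932 in the others, except 902 (511 higher, 391 lower) by the methods' t-test with Benjamini-Hochberg adjustment on 3 hearts a group, in which 2779 genes had an unadjusted p under 0.05. Falls were 357 with arrays scaled by their median and 1563 with array weights. The article's threshold was passed by 1496 genes, 657 without background correction, 655 in the authors' normalized table and 1348 by the methods' t-test. Leaving out 1 of the 13 arrays gave 1207 to 2329 called genes (645 to 1138 higher, 562 to 1191 lower), 1273 to 1802 past the article's threshold, and 5 to 79 named genes whose response differed with TUDCA. That count, 44 in the fit used here, was 125 with array weights, 70 with the percentile ratio as a term and 41 to 65 in the other settings apart from the replicate block. Without a filter on detection nothing changed, because each probe with a symbol was detected on at least 8 arrays. A slide block was not run, since no slide is given in the sources used here.

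Same-numbered Veh-TAC and Veh-Sham hearts of the descriptions deviated together with r = −0.04, −0.26 and 0.11. Hearts with unlike numbers had r from −0.27 to 0.26. With 3 hearts a group these values cannot tell whether the number of the description marks anything shared. With that number as a replicate block 2220 genes were called (1095 higher, 1125 lower), 1512 passed the article's threshold and 27 named genes differed with TUDCA.

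Of the 184 named genes that were called, 166 stayed called in every alternative that fitted them, the t-test apart, and 115 with it included. The alternative of probes detected on all 13 arrays fitted only 192 of the named genes. Genes missing from it, such as Tnc, count as kept there without a test. No named gene that was called changed direction. Medians of 19 of the 77 gene lists changed sign somewhere. With 3 hearts a group, and probes near background or the scanner's ceiling, small changes and folds of the brightest genes are limited.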

Other observations

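Histone genes, which belonged to none of the lists, split by family. Their probes match near-identical copies, so a value may belong to several genes of a family, and they were chosen after their values were seen. Of 33 measured, 11 rose and 6 fell. Of 10 genes of the H2A family 7 rose, with a median log2 fold change of 1.74. H2ac24 had a log2 signal of 13.47, 12.81 and 12.88 in Veh-TAC hearts and 11.46, 11.57 and 10.85 in Veh-Sham hearts (3.40-fold), and H2ac12 rose 4.17-fold, H2ac10 3.47-fold, H2ac22 3.34-fold and H2ac15 3.33-fold. H2ac7 was detected in no Veh-Sham heart and was at least 3.81-fold higher, with means of 8.07 in Veh-TAC hearts and 5.73 in Veh-Sham hearts (adjusted p = 0.0027). In each of these 6 genes T3 was the highest heart. Of 6 genes of the H4 family 4 fell and none rose, with a median of −0.81, of 9 of the H2B family 2 rose and 2 fell, and of 7 of the H3 family 1 rose.

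Many kept probes carry no symbol here. Of these 2479, 223 were called higher and 101 lower (13.1%) in a fit of all 13557 kept probes. The 25% of the genes tested is no measure for that share. Probes with a symbol were detected on at least 8 arrays, and those without one on 3 to 7. Of the probes without a symbol, 180 were detected on every Veh-TAC array and no Veh-Sham array, and 117 of these were called higher. The other way round there were 23, of which 12 were called lower. Being detected on few arrays set these probes apart, so the counts 180 and 23 cannot tell a response to load from that selection.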
